A study of Homo sapiens with 8 samples.

Results

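Long noncoding RNA genes that carry small nucleolar RNAs (snoRNAs) in their introns were followed in the line C4-2, which derives from human prostate cancer cells and is an established culture. The 10 genes were chosen by symbol, with earlier results of these data known. They were GAS5, SNHG1, SNHG5, SNHG6, SNHG7, SNHG8, SNHG12, SNHG15, ZFAS1 and EPB41L4A-AS1. Each had a row in the RNA sequencing table of 18892 genes. The groups were 2 libraries of polyA RNA from C4-2 cells with a control hairpin (shCTRL) and 2 from C4-2 cells with a hairpin against CDCA8 (shCDCA8), both grown in the same medium with no further treatment. CDCA8 is the gene of borealin, which belongs to the chromosomal passenger complex and helps steer chromosome segregation. The labels name no second hairpin and no rescue, so other effects of the hairpin and the loss of CDCA8 cannot be told apart. They also do not say that the 2 libraries of a group came from separate cultures, so p-values measure the spread between these libraries, which may be technical. The 4 small RNA libraries of the series hold microRNA rows and none of the 10 genes, and were not used here.

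Host genes of this kind make their product from the introns. Splicing releases the introns, which are trimmed into snoRNAs that guide ribose methylation (box C/D type, SNORD genes) or pseudouridylation (box H/ACA type, SNORA genes) of ribosomal RNA. The joined exons are the part that polyA sequencing reads. Many of these transcripts start with a terminal oligopyrimidine tract (5′TOP), the C followed by pyrimidines that also opens the mRNAs of ribosomal proteins and ties them to growth signals. Their short reading frames are engaged by ribosomes, and nonsense-mediated decay then removes the RNA. GAS5, the growth arrest-specific transcript, and EPB41L4A-AS1, first described as a transcript induced by growth arrest, were both found through their rise in arrested cells.

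The start regions are shown first because they carry a feature that the choice of genes did not use. RefSeq (GRCh38.p14) gave a promoter for 8 of the 10 genes. No promoter is shown for SNHG6 and SNHG15. A single annotated start per gene was read, and any other start of these genes was not examined. Each line below runs 5′ to 3′ on the gene's strand from 45 bases before the annotated transcript start to 25 bases from it. Capitals mark the letters TATAA where they begin 40 to 20 bases before the start, and a run of at least 5 C or T that begins with C within 10 bases of the start.
SNHG5 (chr6:85678709-85678778, minus strand): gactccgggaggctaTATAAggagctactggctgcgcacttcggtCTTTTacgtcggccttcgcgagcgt
SNHG7 (chr9:136728160-136728229, minus strand): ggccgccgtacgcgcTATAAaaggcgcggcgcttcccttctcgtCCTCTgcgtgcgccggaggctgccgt
SNHG8 (chr4:118278717-118278786, plus strand): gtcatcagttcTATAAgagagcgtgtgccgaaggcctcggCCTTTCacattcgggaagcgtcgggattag
SNHG12 (chr1:28581849-28581918, minus strand): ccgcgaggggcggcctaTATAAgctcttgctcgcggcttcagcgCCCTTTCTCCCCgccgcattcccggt
ZFAS1 (chr20:49278597-49278666, plus strand): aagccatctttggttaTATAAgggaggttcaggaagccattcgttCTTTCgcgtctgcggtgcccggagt
GAS5 (chr1:173869021-173869090, minus strand): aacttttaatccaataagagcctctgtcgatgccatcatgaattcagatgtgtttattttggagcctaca
SNHG1 (chr11:62855861-62855930, minus strand): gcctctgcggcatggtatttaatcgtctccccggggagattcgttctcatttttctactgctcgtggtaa
EPB41L4A-AS1 (chr5:112160481-112160550, plus strand): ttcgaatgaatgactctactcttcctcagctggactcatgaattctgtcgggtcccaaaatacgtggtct

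In SNHG5, SNHG7, SNHG8, SNHG12 and ZFAS1 both marked elements were found together, TATAA between 28 and 34 bases before the start and the pyrimidine run beginning within 5 bases of it. The letters TATAA were searched on the gene's strand only, and did not overlap the run. They were in this window in 5 of 8 host promoters (62.5%), 4.22% of 27305 RefSeq promoters and 9.52% of 63 promoters of cytosolic ribosomal protein genes. The related lists held them too, in 5 of 14 promoters of 5′TOP translation factor genes (35.7%) and in 4 of 32 of protein-coding snoRNA hosts (12.5%). TATAA and a run stood together in 35.7% of the translation factor promoters as well, in 9.52% of the ribosomal ones and in 1.38% of all. A run was present in the same 5 host promoters (62.5%), in 32.7% of all promoters and in 88.9% of the ribosomal ones. SNHG12 had the longest run, of 12 bases. With the stricter rule of a C exactly at the annotated start and only C or T at the next 4 positions, 3 host promoters matched (SNHG5, SNHG12 and ZFAS1, 37.5%), against 4.04% of all and 68.3% of ribosomal protein promoters. Of 15 promoters of other snoRNA host lncRNAs, 1 held TATAA and 10 held a run. CACGTG, the E-box bound by MYC among others and searched on both strands over the 300 bases from 250 before the start to 50 from it, was in 1 host promoter (SNHG7) and in 7.43% of all promoters. These are matches of letters near an annotated start, and the rules were chosen after the sequences had been seen.

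**Figure D1:**
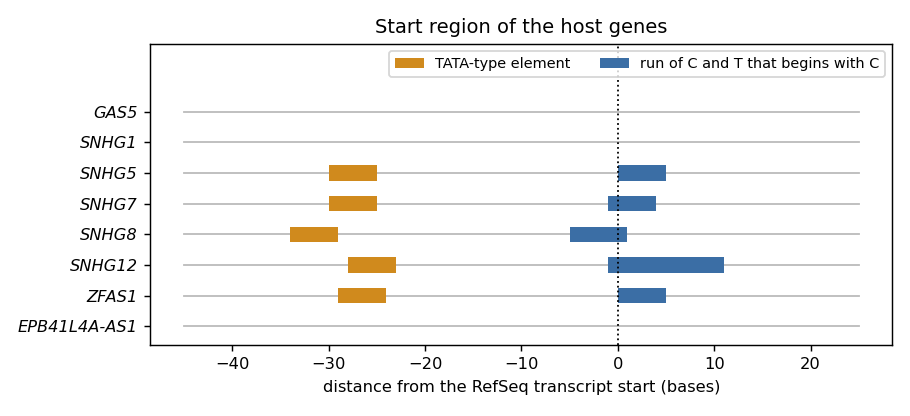
Distance in bases from the RefSeq transcript start (0, dotted line) for 8 host genes. The exact letters TATAA (drawn as the TATA-type element) are in orange and the pyrimidine run that begins with C is in blue. SNHG5, SNHG7, SNHG8, SNHG12 and ZFAS1 hold both. GAS5, SNHG1 and EPB41L4A-AS1 hold neither TATAA nor such a run in these windows. Other TATA-like letters, such as tatttaa in SNHG1, were not searched.

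After CDCA8 knockdown all 10 host transcripts were lower, by between 1.37-fold (SNHG6) and 3.08-fold (SNHG8). The 10 genes together held 174 and 187 RPM (each gene's reads after scaling for library size) in the shCTRL libraries and 75.5 and 76.1 RPM in the shCDCA8 libraries, 42.0% of the control level. Each gene's shCDCA8 values lay below both of its shCTRL values. A gene was called when the Benjamini-Hochberg adjusted p of limma, over the 11833 genes that reached 1 RPM in 2 or more libraries, was under 0.05. All 10 genes were called lower and none higher, where 47.6% of all tested genes were called lower, 18.8% higher and 66.4% in either direction. Because earlier results were known when the 10 genes were chosen, their count beside these shares is not a test. SNHG12 is counted although it passed the filter of 1 RPM only through its control libraries. In the lower direction the groups did not overlap for 56.8% of all tested genes. Fold changes in log2 below are shCDCA8 minus shCTRL on the scale of log2(RPM + 1), which understates the change of low genes. The median over the 10 was -0.90, beside -0.27 over all tested genes. RPM is not divided by transcript length, so levels are compared between libraries and not between genes. In bulk RNA, fewer cells of a type and less RNA per cell cannot be told apart.

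The table as a whole was shifted, and part of each fall is shared with all genes. The gene rows took 41.1% and 43.6% of the reads behind the RPM scale in shCTRL and 33.3% and 34.2% in shCDCA8, on 17406425 to 21920570 reads in gene rows per library. Rescaling every library so that its typical gene matched an average library (median-ratio scaling, as in DESeq2) brought the median of all tested genes to 0.0058. With it 8 of the 10 host genes were still called lower and none higher (of all tested genes 33.6% were lower, 33.2% higher and 66.8% either), the median was -0.64, and the groups did not overlap for 9 genes (41.8% of all tested genes in the lower direction). CDCA8 itself stood at 14.2 and 16.5 RPM in shCTRL, against 3.98 and 3.94 RPM in shCDCA8. All 8 markers of luminal prostate cells were present, KLK3 at 1454 and 1477 RPM in shCTRL, against 364 and 438 RPM in shCDCA8, and 7 of the 8 fell (6 fell and 1 rose under median-ratio scaling). Of 15 markers of leukocytes, endothelium, fibroblasts, basal and neuroendocrine cells, 11 had a row, summing to 24.2 and 30.2 RPM in shCTRL, against 16.4 and 18.5 RPM in shCDCA8. CD3E, PECAM1, DCN, LUM and CHGA were at 0.0642 RPM or less in every library. VWF and COL1A1 fell (-1.40 and -1.30) and CD68 rose (0.41), and the part of these markers in the result was not tested.

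**Figure D2:**
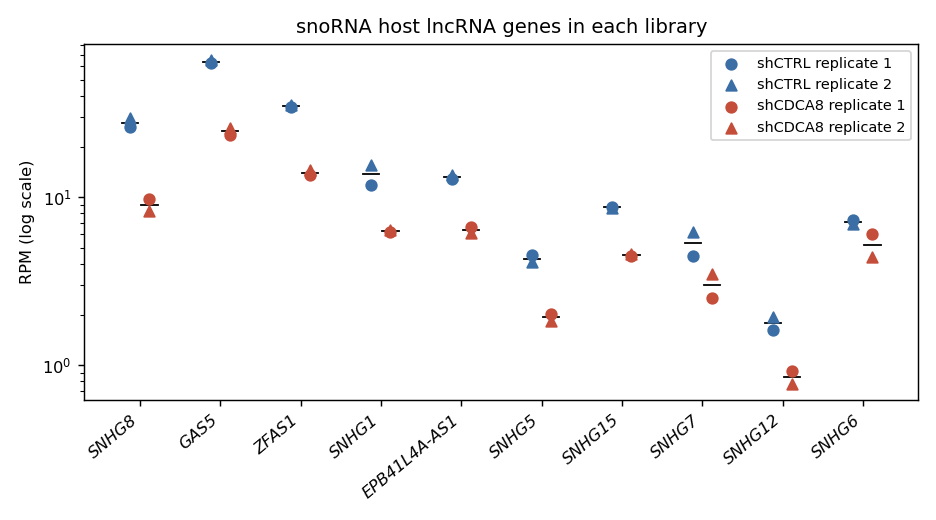
RPM on a log axis for each of the 10 host genes in the 2 shCTRL (blue) and 2 shCDCA8 (red) libraries, with black lines at the group means. Every red point lies below both blue points of its gene, most narrowly for SNHG6.

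SNHG8, GAS5 and ZFAS1 fell most and made up 70.6% and 69.6% of the reads of the 10 genes in shCTRL but 61.9% and 63.8% in shCDCA8. SNHG8, which holds 1 H/ACA snoRNA (SNORA24), was at 26.0 and 29.5 RPM in shCTRL, against 9.76 and 8.25 RPM in shCDCA8. The replicates of each group lay far closer to each other than to the other group. Its mean went from 27.8 ± 2.45 to 9.004 ± 1.07 RPM (SD, n = 2), a log2 fold change of -1.53 ± 0.131 (SE, limma adjusted p = 1.50e-06). Only 4.48% of all tested genes had a lower log2 fold change.

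GAS5, which RefSeq shows with 11 snoRNA genes inside its span, the most of the 10, was at 62.7 and 65.4 RPM in shCTRL, against 23.4 and 25.9 RPM in shCDCA8. The replicates lay close together in both groups and the groups were far apart. The mean went from 64.0 ± 1.86 to 24.7 ± 1.76 RPM (SD, n = 2), a log2 fold change of -1.34 ± 0.108 (limma adjusted p = 9.91e-07). GAS5 was read most deeply, with 1225 to 3344 reads per library. Under median-ratio scaling it stood at -1.04 (adjusted p = 2.84e-05).

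ZFAS1, which lies next to ZNFX1 and holds 3 C/D snoRNAs of the SNORD12 group, was at 34.2 and 35.2 RPM in shCTRL, against 13.6 and 14.4 RPM in shCDCA8. This was the narrowest spread within groups among these 3 genes. The mean went from 34.7 ± 0.718 to 13.99 ± 0.624 RPM (SD, n = 2), a log2 fold change of -1.25 ± 0.114 (limma adjusted p = 2.33e-06), and -0.95 under median-ratio scaling.

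SNHG1, EPB41L4A-AS1, SNHG5 and SNHG15 stood at 44.8% to 51.9% of the control mean, a range that also holds SNHG12, and were called in every alternative that tested them. SNHG1, host of 9 snoRNA genes, was at 11.8 and 15.5 RPM in shCTRL, against 6.20 and 6.35 RPM in shCDCA8. Its controls were more spread than its knockdown libraries, and the groups stayed apart (log2 fold change -0.999 ± 0.148, limma adjusted p = 9.55e-05). EPB41L4A-AS1, host of SNORA13, was at 12.9 and 13.5 RPM in shCTRL, against 6.68 and 6.11 RPM in shCDCA8 (-0.94 ± 0.129, limma adjusted p = 5.28e-05).

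SNHG5, the host of SNORD50A and SNORD50B, was at 4.50 and 4.11 RPM in shCTRL, against 2.03 and 1.83 RPM in shCDCA8 (log2 fold change -0.86 ± 0.133, limma adjusted p = 0.000137). SNHG15, a short-lived transcript that holds SNORA9, was at 8.72 and 8.67 RPM in shCTRL, against 4.44 and 4.59 RPM in shCDCA8 (-0.81 ± 0.131, limma adjusted p = 0.000176). The knockdown libraries of both genes were below both controls by far more than the replicates differed. Under median-ratio scaling these 4 genes were called lower as well, at -0.72 for SNHG1, -0.66 for EPB41L4A-AS1, -0.63 for SNHG5 and -0.55 for SNHG15.

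SNHG7, SNHG12 and SNHG6 were the host genes whose calls were lost under some alternatives. SNHG7, host of SNORA17A and SNORA17B, was at 4.45 and 6.17 RPM in shCTRL, against 2.51 and 3.47 RPM in shCDCA8. Its replicates differed by 0.40 on the log2(RPM + 1) scale in shCTRL, the widest control gap of the 10 genes, and on that scale the gap between the groups was smaller than the gap between replicates in either. The log2 fold change was -0.66 ± 0.170 (limma adjusted p = 0.0048). Under median-ratio scaling it was -0.41, and SNHG7 was then not called (adjusted p = 0.0539). Over the alternatives its adjusted p lay between 1.00e-05 and 0.127, the lower end from the fit without shCTRL replicate 1. Such fits compare 1 library with 2, and the lone library is assumed to vary like the other group.

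SNHG12, host of 4 snoRNA genes, was the gene with the fewest reads, 86 and 90 in shCTRL and 48 and 43 in shCDCA8. These correspond to 1.61 and 1.93 RPM and to 0.919 and 0.778 RPM. It passed the filter of 1 RPM only through its control libraries, so its call has less weight than the others. Its mean fell to 47.9% of control, a 2.09-fold difference, and its smaller log2 value reflects the pseudocount of 1 at this low level. With no filter it was still called (-0.58 ± 0.130 as filtered, adjusted p = 0.00186, and 0.00853 with no filter). DESeq2 on the recovered reads did not call it (-0.74, adjusted p = 0.114), and the adjusted p of SNHG12 lay between 0.000199 (without shCTRL replicate 1) and 0.239 over the alternatives.

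SNHG6, host of SNORD87, was at 7.32 and 6.92 RPM in shCTRL, against 6.01 and 4.40 RPM in shCDCA8. The higher knockdown value came within 1 RPM of the lower control, and the knockdown replicates differed by 0.38 on the log2(RPM + 1) scale. The log2 fold change of -0.40 ± 0.153 passed the test narrowly (limma adjusted p = 0.0357). The call was lost under median-ratio scaling (-0.13, adjusted p = 0.507), and the adjusted p lay between 0.00555 and 0.627 over the alternatives. It was also lost without shCDCA8 replicate 2 (-0.21, adjusted p = 0.367) and without shCTRL replicate 1 (-0.36, adjusted p = 0.0614). The value for SNHG6 lay near the median of all tested genes, -0.27.

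**Figure D3:**
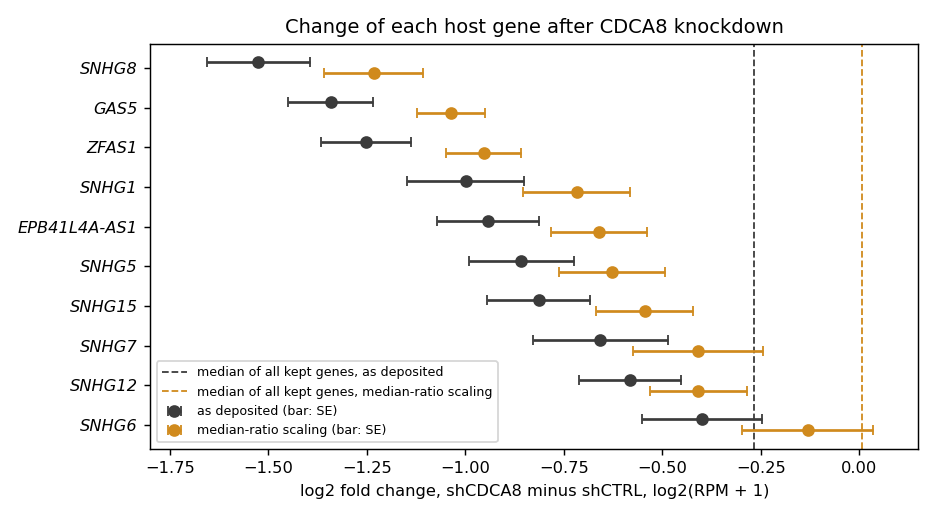
Log2 fold change with its SE for each host gene on RPM as deposited (dark) and after median-ratio scaling (orange), with dashed lines at the medians of all 11833 tested genes. SNHG8, GAS5 and ZFAS1 lie farthest to the left under both scalings, and SNHG6 lies closest to the dashed lines.

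The snoRNAs themselves can be followed only faintly, since they carry no polyA tail. Of 35 snoRNA genes that RefSeq places inside the 10 hosts, 26 had a row, and the highest of any of these in any library was 0.792 RPM (SNORA9, in SNHG15). Summed, the 26 rows held 2.53 and 3.15 RPM in shCTRL, against 1.11 and 1.54 RPM in shCDCA8, on 135, 147, 58 and 85 reads. Both knockdown sums were below both control sums. The 9 rows inside GAS5 went from 57 and 41 reads in shCTRL to 11 and 29 reads in shCDCA8, and the 5 inside SNHG1 from 25 and 21 to 11 and 10 reads. The 3 rows inside ZFAS1 held 4 and 5 reads in shCTRL and 5 and 3 reads in shCDCA8, too few to show a change of the size seen in the host. No row nested in a host reached the filter, so none was tested, and reads in such rows may come from unspliced host RNA as well as from snoRNA. Over all 198 rows named SNORA, SNORD or SCARNA the sums were 27.2 and 30.5 RPM in shCTRL, against 16.04 and 16.8 RPM in shCDCA8.

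Neighbouring genes were read beside the hosts because the table does not state whether strand was used in counting, so reads where 2 genes overlap cannot be assigned to either. Of 5 tested genes that overlap a host in RefSeq, 2 fell and none rose (1 fell and 2 rose under median-ratio scaling). The shares over all tested genes were 47.6% lower and 18.8% higher (33.6% and 33.2% under median-ratio scaling). FAM69B (DIPK1B), which overlaps SNHG7, fell from 41.9 and 42.7 to 20.6 and 24.8 RPM. MCMDC2, which overlaps SNHG6, fell by 0.48 on the log2 scale (not called under median-ratio scaling, at -0.27). ZBTB37, which overlaps GAS5 at its start, was at 2.72 and 2.50 RPM in shCTRL, against 3.25 and 3.17 RPM in shCDCA8 and was not called (0.22, adjusted p = 0.155; 0.45 and called higher under median-ratio scaling). TRNAU1AP, overlapping SNHG12, was likewise not called (0.20, adjusted p = 0.163; 0.49 and called higher under median-ratio scaling), and EPB41L4A was not called (-0.11, adjusted p = 0.505).

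On each side of a host the nearest gene with a row was taken. Genes without a row were passed over, so such a gene need not be adjacent. Of 12 tested genes of this kind, 7 fell and 2 rose (7 and 4 under median-ratio scaling), with a median log2 fold change of -0.62. Among all tested genes 47.6% were lower and 18.8% higher. SGK3, beside SNHG6 and counted among those that fell, passed the filter only through its control libraries. SLC3A2, the heavy chain of amino acid transporters and the neighbour of SNHG1, fell from 134 and 148 to 62.4 and 62.7 RPM (-1.16). RCC1, the nucleotide exchange factor of RAN beside SNHG12, fell from 191 and 208 to 77.3 and 77.8 RPM (-1.35). CCM2, beside SNHG15, rose from 25.1 and 27.6 to 46.8 and 54.3 RPM (0.91), opposite to SNHG15. SYNCRIP, an RNA-binding protein gene beside SNHG5, was at 50.5 and 52.8 RPM in shCTRL, against 64.5 and 65.4 RPM in shCDCA8, and rose (0.32). ZNFX1, the neighbour of ZFAS1, was not called (0.22, adjusted p = 0.155; 0.51 and called higher under median-ratio scaling). The difference between neighbours and hosts was not tested.

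A list of 19 other snoRNA host lncRNAs had 13 rows, of which 10 passed the filter. All 10 fell, as deposited and under median-ratio scaling, with medians of -1.02 and -0.75. Among all tested genes 47.6% were called lower (33.6% under median-ratio scaling). SNHG3 fell most, from 56.5 and 62.7 to 16.7 and 17.5 RPM (-1.74 ± 0.112, limma adjusted p = 1.75e-07). Next came SNHG32, listed as C6orf48, from 43.8 and 48.7 to 17.9 and 16.1 RPM (-1.39). DANCR was at 201 and 216 RPM in shCTRL, against 117 and 125 RPM in shCDCA8 (-0.78). SNHG17 (-1.15), SNHG20 (-1.12), SNHG16 (-1.04), SNHG4 (from 4.09 and 5.25 to 1.55 and 2.12 RPM), SNHG10 (-0.90), SNHG9 (-0.89) and SNHG11 (-0.68) made up the rest, and SNHG18, SNHG21 and PWAR5 were too low to test.

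Long noncoding RNAs listed as not hosting snoRNAs of this kind served as a comparison list of noncoding transcripts. Of 23 such genes 12 were tested, 4 fell and 3 rose (4 and 4 under median-ratio scaling), with a median of -0.08. Over all tested genes 47.6% were lower and 18.8% higher (33.6% and 33.2% under median-ratio scaling). CRNDE fell from 10.0 and 8.39 to 2.93 and 2.13 RPM (-1.54), OIP5-AS1 by 1.15 on the log2 scale, and NEAT1, the scaffold of paraspeckles, from 123 and 129 to 54.7 and 64.2 RPM (-1.07). TUG1 (0.55) rose. The difference between this list and the host genes was not tested.

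Protein-coding genes can host snoRNAs too, and 39 of 42 listed ones were tested. Of these 28 fell and 4 rose (19 and 8 under median-ratio scaling), with a median of -0.51. The shares over all tested genes were 47.6% lower and 18.8% higher (33.6% and 33.2% under median-ratio scaling). Of the 20 that encode ribosomal proteins 19 fell and none rose (median -0.67; 14 and 1 under median-ratio scaling). Of the 19 others 9 fell and 4 rose (median -0.28; 5 and 7 under median-ratio scaling). RPL10, host of SNORA70, fell by 1.22 on the log2 scale, RPS3, host of SNORD15A, by 0.92, and EEF2, the translocation factor of the ribosome, fell by 0.98. NOP58, itself a host, rose (1.13).

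**Figure D4:**
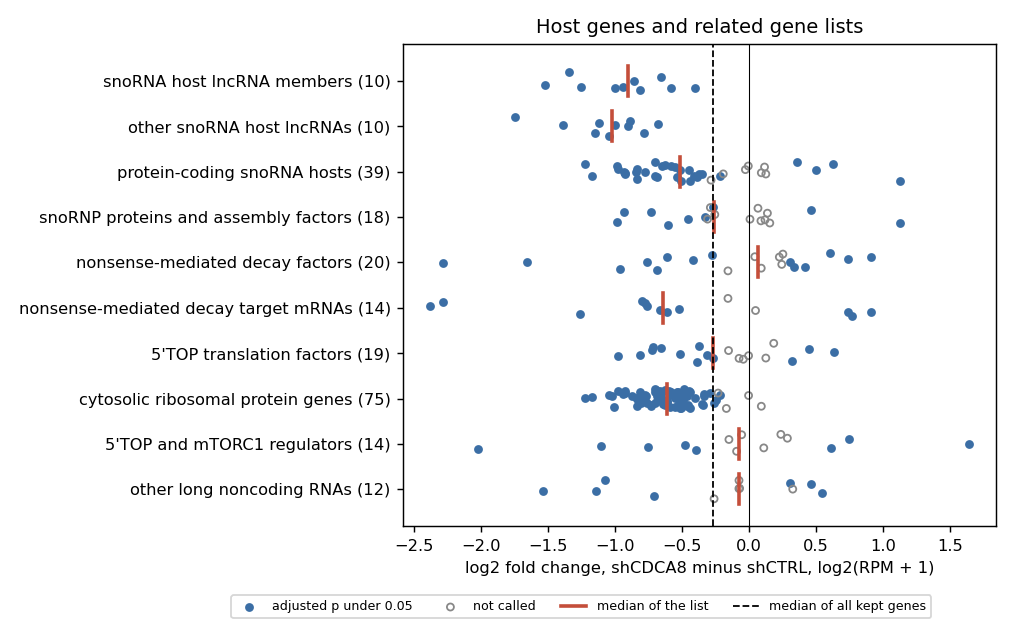
Log2 fold change of each tested gene in the 10 host lncRNA genes (top) and in 9 related lists, with the number tested in brackets, filled points for genes called by limma, red lines at the medians of the lists and a dashed line at the median of all tested genes. On RPM as deposited, where the whole table is shifted, both lists of host lncRNAs lie wholly to the left of 0. The cytosolic ribosomal protein genes lie almost wholly there too, the highest being RPL5 at 0.09. The decay factors, the snoRNP proteins and the other long noncoding RNAs lie on both sides.

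The proteins that bind and modify with snoRNAs had members called in both directions. Of 18 snoRNP proteins and assembly factors 7 fell and 2 rose (4 and 8 under median-ratio scaling), with a median of -0.26, near that of all tested genes. Of all tested genes 47.6% were lower and 18.8% higher (33.6% and 33.2% under median-ratio scaling), and nothing particular to this list was tested. DKC1, the pseudouridine synthase of H/ACA particles, fell from 47.5 and 49.3 to 23.6 and 24.4 RPM (-0.98), and NOP56, a core protein of C/D particles, from 60.9 and 69.9 to 34.1 and 33.3 RPM (-0.93). NOP58, the partner of NOP56, rose from 7.32 and 6.74 to 17.1 and 16.04 RPM (1.13 ± 0.127, limma adjusted p = 1.2e-05). Both directions held under median-ratio scaling.

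Nonsense-mediated decay, the route by which spliced host transcripts are removed, had members called in both directions. Of 20 factors of decay and of the exon junction complex 8 fell and 6 rose (5 and 10 under median-ratio scaling), with a median of 0.07. Among all tested genes 47.6% were lower and 18.8% higher (33.6% and 33.2% under median-ratio scaling), and nothing particular to these factors was tested. CASC3, a subunit of the exon junction complex, fell by 1.65 on the log2 scale, and SMG5, which acts in the dephosphorylation of UPF1, fell by 0.76. UPF2 (0.91) and SMG1 (0.74), the kinase of UPF1, rose, and UPF1, the central helicase, fell (-0.62; not called under median-ratio scaling, at -0.31, adjusted p = 0.0656). Of 14 mRNAs known as targets of decay, a list that shares 6 genes with the factors, 9 fell and 3 rose (7 and 3 under median-ratio scaling; median -0.64). ATF4, the transcription factor of the amino acid response, fell from 662 and 677 to 131 and 125 RPM (-2.38), and ERN1, a sensor of the unfolded protein response, fell by 1.26 on the log2 scale.

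Lists of mRNAs with a 5′TOP start and of their regulators were counted in the same way. In the host promoters above, such a start was not found at every annotated start that was read. Other starts of the hosts were not examined. Of 75 tested cytosolic ribosomal protein genes 71 fell and none rose (49 and 2 under median-ratio scaling), with a median of -0.62. For this list and the next 2, the shares over all tested genes were 47.6% lower and 18.8% higher (33.6% and 33.2% under median-ratio scaling). RPL29 (-0.98) and RPL28 (-1.01) had the smallest p beside RPL10. Values of ribosomal protein genes, RPL10 included, are uncertain because such genes may share reads with processed pseudogenes, which was not examined. Of 19 genes on a list of 5′TOP translation factors, which shares FAU with the ribosomal list, 10 fell and 3 rose (6 and 7 under median-ratio scaling; median -0.27), among them EEF1A1 (-0.82) and EEF1G (-0.72). Of 14 regulators of 5′TOP mRNAs and mTORC1, the growth kinase complex, 5 fell and 3 rose (3 and 6 under median-ratio scaling). EIF4EBP1, a repressor of cap-dependent translation, fell from 232 and 226 to 53.9 and 57.3 RPM (-2.02), MLST8 fell by 1.11 and RPS6KB2 rose from 33.7 and 37.1 to 110 and 116 RPM (1.65).

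The 5 genes outside the list whose values over the 4 libraries lay closest to the mean profile of the hosts were YPEL1, UBE2G2, SKA3, SDSL and SLC35B1, out of 8496 genes whose mean reached 5 RPM. Likeness was the Euclidean distance between log2(RPM + 1) values centred on their mean. YPEL1 was closest, at 0.00883, and the fifth, SLC35B1, was at 0.0312. Over 4 libraries in 2 groups such closeness is mostly a like difference between the groups, of -0.92 to -0.95 in these 5 genes.

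Over 15 alternative ways of processing, in which each tested host kept a log2 fold change below 0, GAS5, SNHG1, SNHG5, SNHG8, SNHG15, ZFAS1 and EPB41L4A-AS1 were called lower in every alternative that tested them. SNHG5 and SNHG7 were not tested under the filter of 5 RPM, nor was SNHG12. GAS5 went from -1.41 to -1.02 over the alternatives, SNHG8 from -1.63 to -1.22 and ZFAS1 from -1.29 to -0.94. SNHG6 was called in 7 of 15, SNHG7 in 9 of 14 and SNHG12 in 12 of 14.

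**Figure D5:**
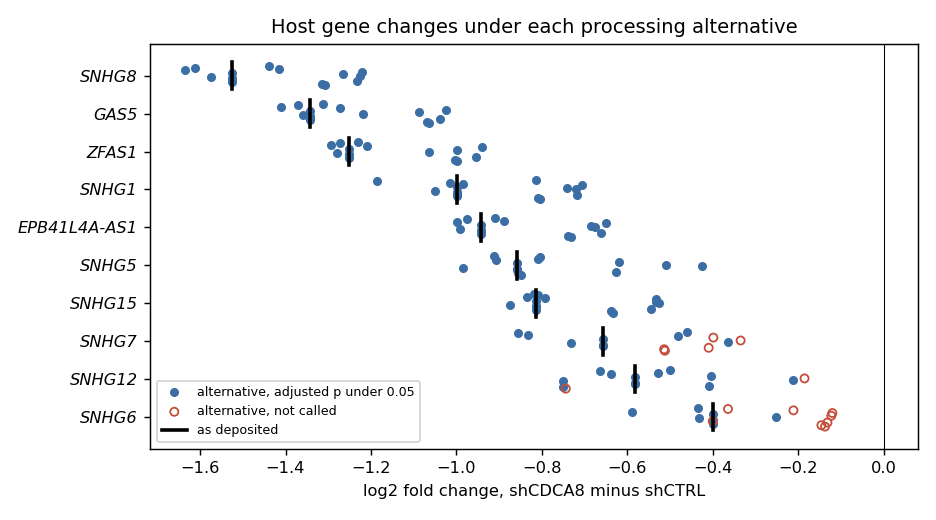
Log2 fold change of each host gene as deposited (black bar) and under each processing alternative (filled where limma, edgeR or DESeq2 gave an adjusted p under 0.05, open where not). No point reaches 0, and open points occur for SNHG6, SNHG7 and SNHG12.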

How the data were processed

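The authors deposited RPM, reads per gene scaled to a library total, per the file headers and names. How the total was chosen: not given in the sources used here. TopHat, HTSeq, cutadapt, edgeR and hg19 appear, per the submitters' processing notes, without versions or roles. No source names the annotation. Values were multiples of 1 step per library (100% of those above 0, to within 0.01 read), which gave the reads back. No column belonged to another sample.

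Log2(RPM + 1) was tested for genes that reached 1 RPM in 2 or more of the 4 libraries. The test was limma 3.58.1 (R 4.3.3, mean-variance trend, two-sided, groups only), run also on simulated data with known changes. In the simulated data few genes changed, in both directions, and the table as a whole was not shifted. That check therefore does not cover the shift seen here. The count models edgeR 4.0.16 (7807 genes called) and DESeq2 1.42.0, run on the recovered reads, were alternatives, beside other scalings, pseudocounts, filters, no trend, a replicate block and leaving out each library.

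Named were the 10 hosts, CDCA8, the 3 tested genes with the smallest p of each list, all tested other host lncRNAs, neighbours in RefSeq order and the 5 nearest profiles. A gene that this rule names is not reported here. TUG1, UPF1, UPF2, SMG1 and the named markers were picked after their values were seen. The hosts and lists were chosen with earlier results of these data known. RefSeq tables (GRCh38.p14) gave promoters, neighbours and older symbols, matching all 10 hosts.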

Additional observations from a re-analysis of the deposited data

How the results depend on the processing

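The 10 hosts gave 147 log2 fold changes over the alternatives; none changed sign and 15 lost the call, those of SNHG6, SNHG7 and SNHG12. The hosts called lower numbered 7 to 10 over the alternatives, with none higher. The counts over all genes moved with the scaling, which removes the shift of the table: 5628 lower and 2224 higher as deposited became 3979 and 3931 with median-ratio scaling, 3873 and 3985 with each library scaled to its summed gene rows, 3721 and 3980 with quantile normalization, 3956 and 3851 with edgeR, and 3575 and 3639 with DESeq2. Leaving out single libraries gave 4848 to 5624 lower and 1869 to 2059 higher. The lists' counts moved by over 1.5 times, or to or from 0, in 58 of 330 values, mostly under these scalings. Libraries with the same replicate number share only a number in the labels. The difference of replicate 1 minus replicate 2 within shCTRL correlated with that within shCDCA8 at 0.313 over 11833 genes. The main fit does not model such a shared replicate difference. With 2 pairs of libraries, the fit with a replicate block gave 6189 lower, 2712 higher and all 10 hosts lower. Depth limits SNHG12 (43 to 90 reads per library) and the nested snoRNA rows.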
